A study of Gelatoporia subvermispora and Trametes versicolor with 24 samples.

Results

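TOR1 and TOR2, the 2 genes of the white-rot fungus Gelatoporia subvermispora that carry the symbol of the TOR kinases, were followed in cultures given vanillate or water. They were taken by symbol from the 12313 genes of this fungus, of which 110 carry a symbol and the rest a locus identifier. The series also covers Trametes versicolor, whose tables hold 0 symbols that begin with TOR among 42, so that fungus was not analysed here. G. subvermispora strain FP-105752 was grown as a monokaryon, mycelium with a single nuclear type, in a static medium with 5 g/L cellobiose at 28 °C. After 12 days all flasks, those of the water group included, were given the antioxidants ascorbic acid (5 mM) and α-tocopherol (1 mM). Vanillate or an equal volume of water followed after 30 min. Vanillate, the anion of a methoxylated aromatic acid and a relative of lignin units, was brought to 2 mM in 2 pulses 12 h apart, and mycelium was taken on day 13. The study concerns the catabolism by such fungi of methoxylated compounds of this kind. Each group was taken as 3 flasks, each the sum of a first and a repeat library with the same replicate number. The labels do not say what the repeat library is, and while the design text gives 6 cultivations per fungus, the growth protocol gives 12.

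TOR (target of rapamycin) is a very large serine/threonine protein kinase that couples growth to nutrients, and it works in protein complexes with different partners. In budding and fission yeast a pair of TOR genes exists, in mammals a single one. In these organisms TOR complex 1 responds to nitrogen and amino acids, promotes protein synthesis and holds back autophagy, whereas TOR complex 2 acts on the cytoskeleton and on membrane lipids. In budding yeast the Tor1 protein works in complex 1 alone and the Tor2 protein in both. Which complex the products of these Gelatoporia genes enter is not given in the sources used here, and the tables give their symbols only.

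Flask totals were 6119420 to 12333618 gene counts. The 2 libraries of a flask differed by 1.01 to 1.06 chi-square per degree of freedom in 6 pairs, against 2.88 to 8.65 between flasks of a group in 24 pairs, and for this reason were counted as 1 sample. Reads of low alignment quality made up 4.04% to 5.59% of a library in water and 5.92% to 12.5% with vanillate, and the 2 libraries of vanillate flask 1 were the highest, at 12.2% and 12.5%. The part of this difference in the results was not tested, and values without vanillate flask 1 are given for TOR1, TOR2, their ratio, share and sum, and the ATG count. The labels do not say whether flasks of a group came from separate seed cultures, so p-values rest on the spread among the flasks as deposited, which may be technical.

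TOR1 rose with vanillate and TOR2 fell, each by under 0.5 on the log2 scale, and neither gene's groups overlapped. Levels are given in CPM, read counts brought to a common library total, after TMM scaling, a factor per flask that corrects for differences in RNA composition. TOR1 stood at 49.4, 46.3 and 42.9 CPM in water flasks 1, 2 and 3, on 439, 418 and 432 reads. With vanillate it stood at 65.2, 63.5 and 56.8 CPM, on 380, 745 and 544 reads. The lowest vanillate flask, number 3, thus lay above the highest water flask, number 1. The mean went from 46.2 ± 3.24 to 61.8 ± 4.47 CPM (SD, n = 3), which is 1.34-fold higher. On the log2 scale this was 0.42 (SE 0.08), with an adjusted p = 0.000716 by edgeR's quasi-likelihood test. An adjusted p under 0.05, corrected over all 10318 genes tested, was the threshold for a call. Of these genes 25.5% were called as higher, so a call of this kind was common in the comparison. The pair was also chosen with these changes known.

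TOR2 moved the other way. It stood at 139, 121 and 127 CPM in water flasks 1, 2 and 3, on 1232, 1094 and 1279 reads. With vanillate it stood at 104, 101 and 99.0 CPM, on 604, 1184 and 949 reads. Every vanillate flask was below every water flask, with the smallest gap between water flask 2 and vanillate flask 1. The mean went from 129 ± 8.90 to 101 ± 2.36 CPM (SD, n = 3), 0.785 of the water level. On the log2 scale this was -0.35 (SE 0.07), with an adjusted p = 0.000568 by the same test in edgeR. Of all genes tested 25.9% were called as lower. The near balance of higher and lower calls depended on the scaling, and with library totals 17.3% were called as higher and 36.9% as lower. Groups failed to overlap as higher in 29.1% of genes and as lower in 30.1%, the background against which the separation of both TOR genes is read. In bulk mycelium, less RNA per cell cannot be told apart from fewer cells that carry it.

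**Figure D1:**
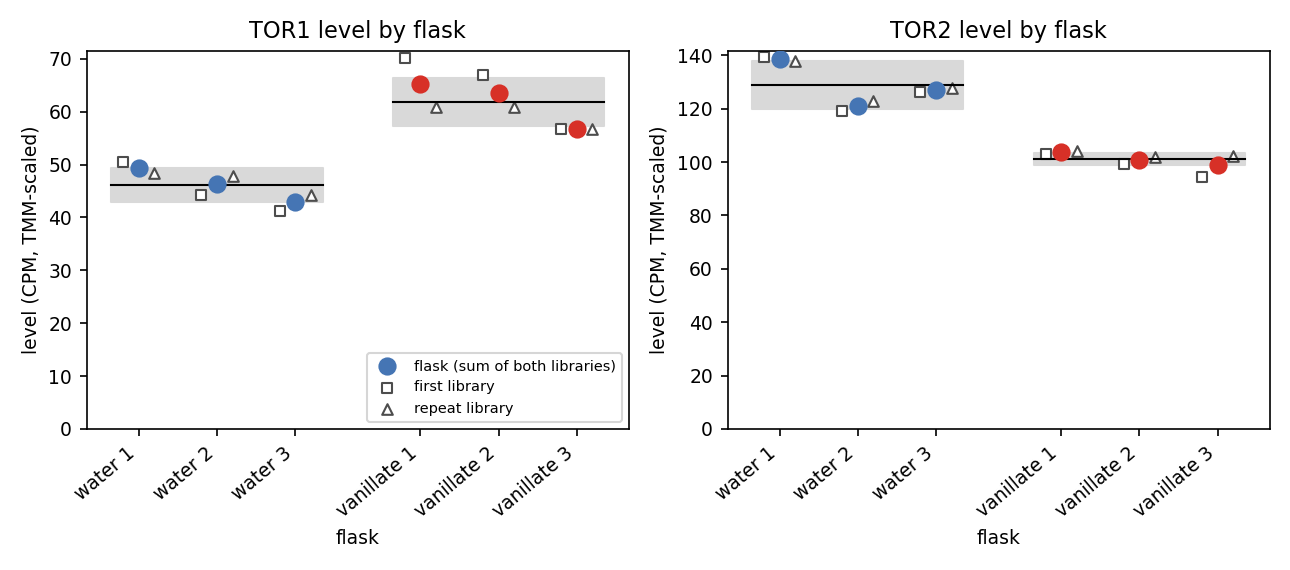
Level of TOR1 (left) and TOR2 (right) in CPM, with flasks on the x axis, water in blue and vanillate in red. Large points are flasks, squares and triangles their first and repeat libraries, lines the group means and bands 1 SD over 3 flasks: TOR1 is higher in all vanillate flasks (56.8 to 65.2 CPM against 42.9 to 49.4) and TOR2 lower (99.0 to 104 CPM against 121 to 139).

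Both changes were smaller in size than the median of the genes called in the same direction. Of the 2629 genes that rose, 1515 rose by more than TOR1, and the median increase among the genes called was 0.48 on the log2 scale. Of the 2675 genes that fell, 1966 fell by more than TOR2, with a median of -0.54. Between the log2 fold changes of TOR2 and TOR1 lay 6364 of the 10318 genes tested. Without vanillate flask 1 TOR1 was at 0.38 (adjusted p = 0.00509) and TOR2 at -0.37 (adjusted p = 0.00247, both by edgeR).

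**Figure D2:**
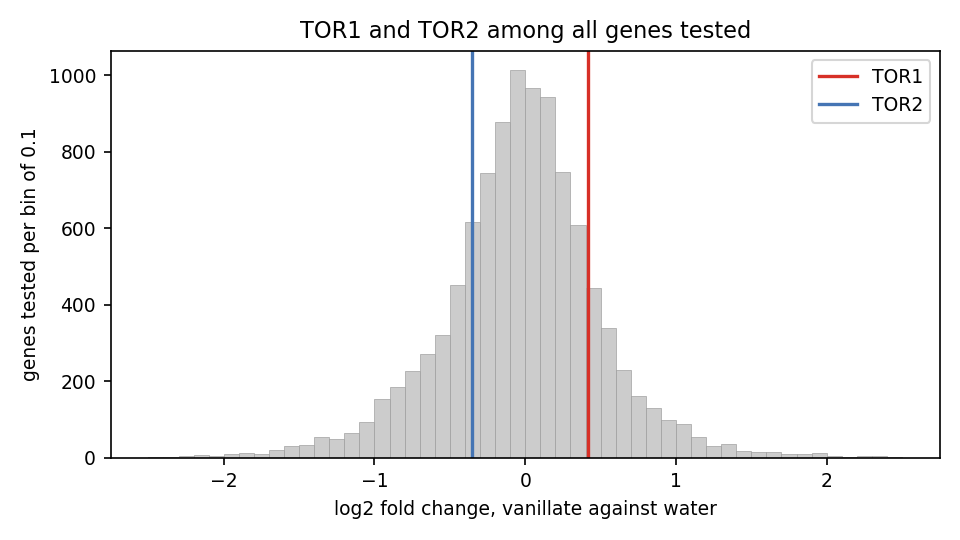
Distribution of the log2 fold change, vanillate against water, over the genes tested, in bins of 0.1, with TOR1 (0.42, red) and TOR2 (-0.35, blue) as lines. Both lines lie on the shoulders of the distribution, and 5 genes below -2.5 and 65 above 2.5 are not drawn.

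The opposite direction did not hang on the scaling. With library totals in place of TMM the median of all genes was -0.14 instead of -0.01 on the log2 scale. TOR1 was then at 0.29 (adjusted p = 0.00759) and TOR2 at -0.48 (adjusted p = 2.59e-05, both by edgeR). Relative to the median of all genes, TOR1 was at 0.43 and TOR2 at -0.34 under either scaling. A change of scaling shifts all genes by nearly the same amount, so this agreement was fixed in advance.

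The ratio of the genes' reads within a flask needs no scaling between flasks, and in it the changes of both genes add up. It sets reads against reads and is not corrected for the lengths of the genes, which were not used here, so only its change between groups is read here, and it does not rank the genes' levels. TOR1 had 0.356, 0.382 and 0.338 reads per TOR2 read in water flasks 1, 2 and 3. With vanillate the ratio was 0.629, 0.629 and 0.573. All vanillate flasks lay above all water flasks, and the gap between the groups was wider than the range within either. The mean ratio was 0.359 ± 0.0223 in water and 0.611 ± 0.0323 with vanillate (SD, n = 3), 1.70-fold higher. On the log2 scale the difference was 0.77 (SE 0.07). The two-sided exact permutation test gave p = 0.1, the smallest that 3 flasks against 3 allow. The groups of each gene were already apart, in opposite directions, in a pair chosen with these changes known. The separation of the ratio and its p were thus fixed by those results and are no further evidence. Without vanillate flask 1 the difference was 0.75.

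As a share, TOR1 took 26.3% of the reads of both genes in water flask 1, with a 95% exact Clopper-Pearson interval of 24.2% to 28.5%. In water flasks 2 and 3 it took 27.6% (25.4% to 30.0%) and 25.2% (23.2% to 27.4%). With vanillate the shares were 38.6% (35.6% to 41.7%) in flask 1, 38.6% (36.4% to 40.8%) in flask 2 and 36.4% (34.0% to 38.9%) in flask 3. The intervals of the water flasks overlapped among themselves, as did those of the vanillate flasks, and no interval of one group reached into the other. These intervals cover the counting error of reads only and not the spread between flasks. Since reads carry no molecular identifiers, copies of a molecule are counted as separate reads, and the intervals may be too narrow. The mean share was 26.4% ± 1.20 in water and 37.9% ± 1.26 with vanillate (SD, n = 3). Without vanillate flask 1 the mean of the other vanillate flasks was 37.5%.

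**Figure D3:**
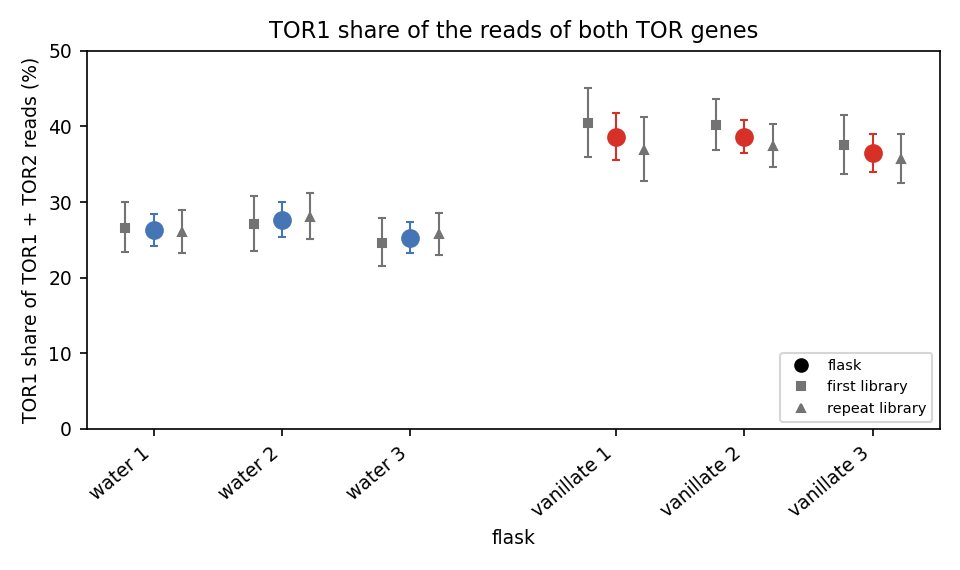
TOR1 reads as a percentage of TOR1 plus TOR2 reads, with flasks on the x axis. Circles are flasks (water blue, vanillate red), small grey squares and triangles the first and repeat library of each, and bars 95% exact Clopper-Pearson intervals: water flasks lie at 25.2% to 27.6% and vanillate flasks at 36.4% to 38.6%.

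The repeat libraries showed the same separation. Over the 6 libraries of water flasks the TOR1 share ran from 24.6% to 28.1%, with a median of 26.3%. Over the 6 libraries of vanillate flasks it ran from 35.7% to 40.5%, with a median of 37.5%. These are pairs of libraries from 3 flasks per group and not further replicates. The first libraries alone gave a log2 difference in the ratio of 0.88 and the repeat libraries 0.68, and for TOR1 itself a log2 fold change of 0.51 and 0.34. For TOR1 in vanillate flasks 1, 2 and 3, the level in the repeat library minus that in the first was -0.20, -0.13 and -0.004 on the log2 scale. In water flasks 1, 2 and 3 it was -0.06, 0.12 and 0.10. For TOR2 the differences were 0.01, 0.04 and 0.11 with vanillate and -0.02, 0.04 and 0.02 in water. Whether these shifts exceed counting error was not tested. Over the genes compared, the 2 libraries of a flask differed by 1.01 to 1.06 chi-square per degree of freedom, close to counting error alone.

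The summed level of both TOR genes, not corrected for length, was lower with vanillate by an amount that depended on the scaling. With TMM the sum was 188, 167 and 170 CPM in water flasks 1, 2 and 3 and 169, 164 and 156 CPM with vanillate. Vanillate flask 1 lay between water flasks 2 and 3, so the groups overlapped. The difference of the means, 175 ± 11.2 in water and 163 ± 6.67 CPM with vanillate (SD, n = 3), was -12.0 CPM (SE 7.54). The two-sided exact permutation test gave p = 0.2. With library totals the sums were 197, 177 and 175 in water and 161, 156 and 151 with vanillate, so that the groups did not overlap, and the difference was -26.9 (exact permutation p = 0.1, the smallest possible). They did not overlap either without vanillate flask 1 (means of 175 CPM in water and 160.1 CPM with vanillate, with TMM), without water flask 2 (a difference of -15.9 CPM) or in the repeat libraries alone (-14.1 CPM). Without water flask 1 the groups overlapped, with a difference of -5.59 CPM (exact permutation p = 0.4). They also overlapped in the first libraries alone (-10.1 CPM, exact permutation p = 0.5). The same held without water flask 3 (-14.6 CPM), vanillate flask 2 (-12.7 CPM) or vanillate flask 3 (-8.42 CPM). These alternatives for the sum were chosen after seeing the data.

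Flasks of a group differed little in either gene. The spread between flasks, as SD in percent of the mean, was 7.01% in water and 7.23% with vanillate for TOR1, and 6.91% and 2.33% for TOR2. Counting alone gives 4.77% to 4.89% for TOR1 in water and 3.66% to 5.13% with vanillate, and 2.80% to 3.02% and 2.91% to 4.07% for TOR2. TOR2 with vanillate thus varied by less than the counting error of single flasks, and the other spreads were above it. In water flask 1 both genes were above their group mean, by 0.10 for TOR1 and 0.11 for TOR2 on the log2 scale. In water flask 2 TOR1 was at 0.005 and TOR2 at -0.09 from the mean, and in water flask 3 the values were -0.10 and -0.02. With vanillate, flask 1 was at 0.08 and 0.04, flask 2 at 0.04 and -0.005 and flask 3 at -0.12 and -0.03.

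Other genes of the TOR pathway could be looked for by symbol alone. Of 46 symbols searched, those of complex partners such as raptor and LST8, of upstream regulators such as TSC2 and RHEB, of targets such as SCH9 and of related kinases, 0 were found in the table. The list of related genes that did have members in the table was that of autophagy, by which cells digest their own components and which in yeast TOR complex 1 holds back. It holds only the genes that carry an ATG symbol. Others, ATG8 among them, have no such symbol here and may stand under locus identifiers. Of 10 ATG genes 7 fell, 0 rose and 3 did not pass by edgeR's quasi-likelihood test, where 25.9% of all genes fell. Their median log2 fold change was -0.29, against -0.01 over all genes tested. Without vanillate flask 1, 6 fell and 0 rose, where 2375 of the 10409 genes tested fell. With library totals 7 fell, where 36.9% of all genes did. The list and its direction were known from earlier results on these samples, so the count is no independent evidence.

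ATG1, in budding yeast the protein kinase that starts autophagy in a complex regulated by TOR complex 1, did not pass. It stood at 37.0, 29.7 and 39.3 CPM in water flasks 1, 2 and 3 and at 31.2, 34.3 and 32.6 CPM with vanillate, with overlapping groups and a change of -0.11 on the log2 scale (SE 0.11, edgeR adjusted p = 0.421). ATG12, a ubiquitin-like protein of the conjugation system in yeast, was at 0.01 (SE 0.07, adjusted p = 0.938). ATG24, a sorting nexin in yeast, was at 0.05 (SE 0.06, adjusted p = 0.517).

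Among the genes that fell, ATG4 encodes in yeast the protease that cleaves Atg8, and ATG3 a conjugating enzyme that attaches Atg8 to lipid. ATG4 went from 84.1 ± 4.02 to 67.5 ± 3.06 CPM (SD, n = 3; log2 fold change -0.32, edgeR adjusted p = 0.00126), close in size to the -0.35 of TOR2. ATG3 was at -0.27 (adjusted p = 0.00186), and with the first libraries alone it did not pass (-0.18, adjusted p = 0.0839). ATG18, which in yeast binds the lipid made by Vps34, was at -0.30 (adjusted p = 0.0013), and ATG27, a membrane protein of vesicle traffic in yeast, at -0.31 (adjusted p = 0.00116). ATG15A and ATG15B, by their symbols vacuolar lipases, had the largest falls of the list, at -0.43 and -0.50. ATG16, a partner of the ATG12 conjugate in yeast, was at -0.18 (adjusted p = 0.0306 by edgeR). It lost its call with the DESeq2 Wald test (0.119), with the repeat libraries (0.112), and without water flask 2 or 3 or vanillate flask 1 or 3 (0.097, 0.0842, 0.0882 and 0.0819).

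Vps34, a lipid kinase whose catalytic domain is related to that of TOR and which serves autophagy and vesicle traffic in yeast, was picked after its symbol was seen in the table. It stood at 29.1, 32.8 and 35.8 CPM in water and 32.4, 34.8 and 33.8 CPM with vanillate. The vanillate flasks lay within the range of the water flasks, and the log2 change was 0.05 (SE 0.09, adjusted p = 0.674 by edgeR).

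**Figure D4:**
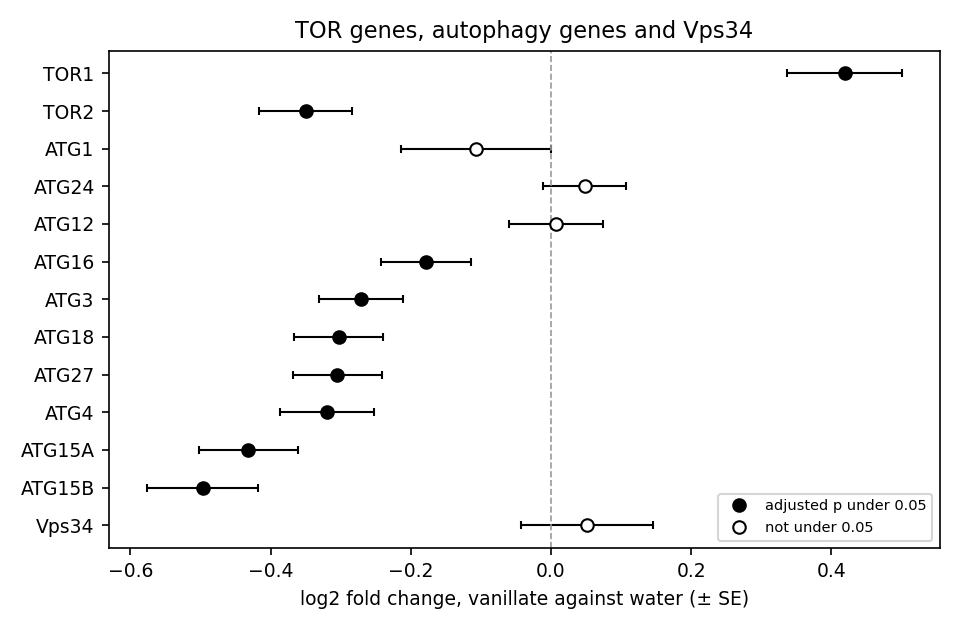
Log2 fold change, vanillate against water, with its SE, for TOR1, TOR2, the 10 ATG genes and Vps34, 1 gene per line. Filled points had an adjusted p under 0.05 by edgeR: TOR1 lies to the right of 0, at 0.42, and TOR2 to the left with 7 ATG genes.

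The genes whose pattern over the 6 flasks was most like each TOR gene were found by the root mean square difference between log2 CPM profiles, each centred on its own mean. For TOR1 these were CERSUDRAFT_87652, CERSUDRAFT_149007 and CERSUDRAFT_116180, at a distance of 0.027, 0.028 and 0.028. CERSUDRAFT_87652 went from 208 ± 16.6 to 273 ± 17.2 CPM (SD, n = 3) and CERSUDRAFT_116180 from 96.9 ± 6.16 to 131 ± 6.63 CPM. For TOR2 they were CERSUDRAFT_118211, CERSUDRAFT_111510 and CERSUDRAFT_112236, at 0.025, 0.026 and 0.027. CERSUDRAFT_118211 went from 94.3 ± 4.91 to 75.0 ± 0.65 CPM. The files give these genes an identifier and no product. With the first libraries alone, 0 of the 3 names stayed the same for either gene.

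Among genes with a symbol, mip was nearest to TOR1 at 0.06, followed by the pheromone receptor gene CsSTE3.5 at 0.08 and CsMn04 at 0.10. The nearest to TOR2 were CsMn26 at 0.05, ATG15A at 0.05 and ATG27 at 0.06. The TOR genes stood 0.39 from each other. Of 10317 genes compared, 7232 were closer to TOR1 than TOR2 was, and 7884 were closer to TOR2 than TOR1 was. The median distance was 0.29 to TOR1 and 0.26 to TOR2. The distance between the TOR genes restates the opposite changes known when the pair was chosen, so these ranks are no separate result.

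**Figure D5:**
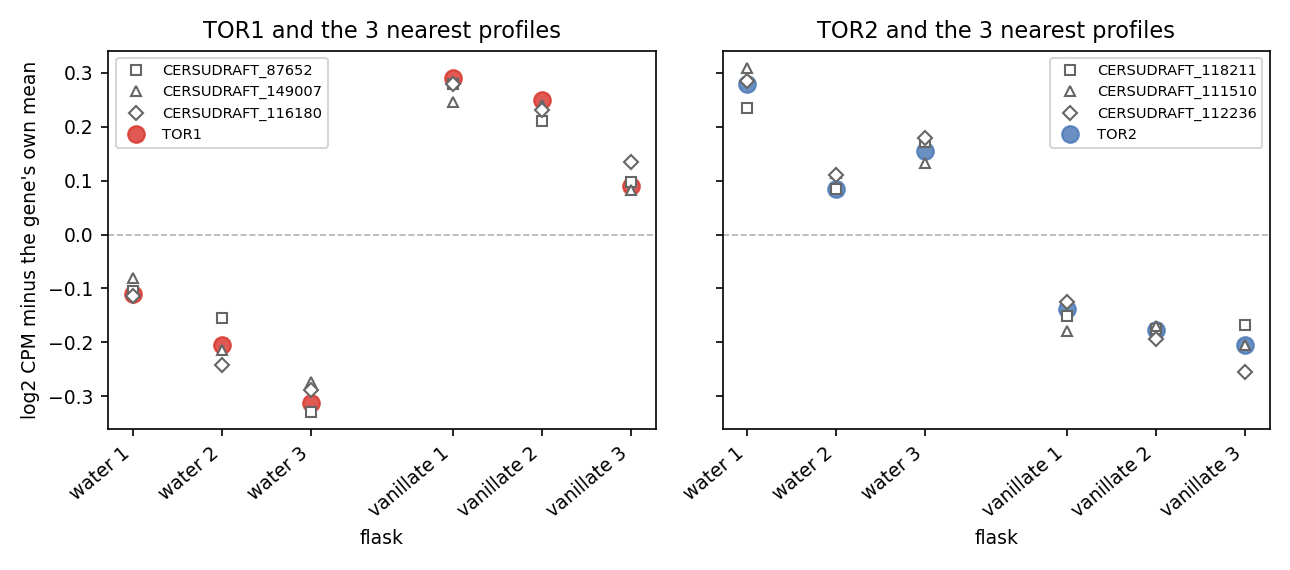
Log2 CPM minus the gene's own mean over 6 flasks, by flask, for TOR1 (left) and TOR2 (right) and the 3 genes with the nearest profile to each. The profiles were chosen for being near: TOR1 and its 3 lie below 0 in all water flasks and above it with vanillate, and TOR2 and its 3 the reverse.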

How the data were processed

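The authors deposited raw read counts per gene for 24 libraries, 12 of them of G. subvermispora. Per the labels' protocols, total RNA was treated with DNase, made into libraries with a stranded kit and sequenced as single reads. FastQC, STAR and HTSeq are named without versions, per the submitters' processing notes. The sources used here name no build, annotation or strand setting. Reads that match both TOR genes could have been lost or split, and reads of overlapping or antisense genes shared. In each G. subvermispora library 0 reads were recorded as not uniquely aligned. Whether reads that match both TOR genes fell among those of low alignment quality was not tested.

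Lines of reads assigned to no gene were left out, and genes took 70.0% to 79.9% of a library. Libraries of a flask were summed. edgeR 4.0.16 (R 4.3.3) used filterByExpr (min.count 10, min.total.count 15), TMM and two-sided robust quasi-likelihood tests with Benjamini-Hochberg adjustment. For edgeR results, SE is the absolute log2 fold change over the square root of F. For the ratio and the sum, each group's variance over flasks was divided by 3, and SE is the square root of their sum. The script was tested on simulated data. Permutation tests and intervals used SciPy 1.17.1. Alternatives were other scalings, filters, DESeq2 1.42.0, single libraries, a replicate block and leaving out each flask. Named genes were TOR1, TOR2, all genes with an ATG symbol and the 3 nearest profiles to each TOR gene, among all genes and among symbols. Members and lists were chosen with earlier results of these data known.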

Additional observations from a re-analysis of the deposited data

How the results depend on the processing

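TOR1 kept its direction and its call in the 14 alternatives tried, and so did TOR2. Leaving out one flask gave log2 fold changes of 0.37 to 0.48 for TOR1 (edgeR adjusted p = 0.00038 to 0.00608) and -0.39 to -0.30 for TOR2 (0.00081 to 0.00433). The other alternatives gave 0.29 to 0.51 and -0.48 to -0.33. The log2 difference of the ratio was 0.73 to 0.81 on leaving out a flask, where the smallest p possible is 0.2, and 0.68 to 0.88 otherwise. Genes called in all numbered 5304, and 4398 to 5600 in the alternatives. With TMM 2629 were higher and 2675 lower, and with library totals 1788 and 3812. The ATG count was 6 or 7 of 10, all as lower, where 2171 to 3812 of all genes were called as lower.

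Replicate numbers did not pair the flasks: the correlation of deviations was -0.15 to 0.04 between same-numbered flasks, and 1 flask of 6 was most correlated with its own number in the other group. With a replicate block TOR1 was at 0.42 (adjusted p = 0.000773), TOR2 at -0.35 (adjusted p = 0.00129, both by edgeR) and the ratio at 0.77 (exact sign-flip p = 0.25, the smallest possible). With this block 5075 of 10318 genes tested were called, 2553 of them as lower, and 7 ATG genes, all as lower. Depth limits the share of TOR1 in a flask to intervals of a few percentage points.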
